A study of Homo sapiens with 10 samples.

Results

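The genes described here are the zinc finger genes of chromosome 19 bands q13.41 to q13.42. Members were taken by position and name, under a rule set with earlier results of these data known. They are all genes in the count tables that start after base 51000000 and up to base 54500000 of chromosome 19 (hg38) and whose symbol begins with ZNF or ZFP followed by a digit. This gave 48 of the 58884 genes in the tables, from ZNF175 to ZNF331.

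Most of these genes are thought to have arisen by local duplication and to encode proteins with a KRAB domain followed by an array of C2H2 zinc fingers. The fingers bind DNA, often in transposable elements, and the KRAB domain binds TRIM28 (KAP1), which brings the H3K9 methyltransferase SETDB1, HP1 proteins and deacetylases to the bound site. The genes are themselves known to carry H3K9me3 over their bodies, and promoter methylation of several of them has been described in tumours.

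RNA was sequenced from the human colorectal carcinoma line HCT116 and from DNMT1 KO cells, a derivative in which the gene of the maintenance DNA methyltransferase DNMT1 was disrupted. The derivative is 1 published line, and the study describes it as a hypomorph that still makes a truncated DNMT1, so line and genotype cannot be told apart. Neither group received a treatment named in the labels. The libraries used were HCT116 replicates 1, 2, 3, 7, 8 and 9 and DNMT1 KO replicates 1 to 4. By the labels, batch 1 held replicate 1 of both lines, batch 2 replicates 2 and 3 of both, batch 3 DNMT1 KO replicate 4, and batch 4 HCT116 replicates 7, 8 and 9. The study describes its expression values as coming from independent cultures, which the labels do not name, and p-values measure the spread between these libraries.

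The HCT116 tables summed to between 35418732 and 85991812 counts and the DNMT1 KO tables to between 26700853 and 55732013. Levels are given as CPM, counts rescaled to a common depth with TMM factors. DNMT1 itself averaged 153 ± 64.2 CPM over the 6 HCT116 libraries and 19.5 ± 3.68 CPM over the 4 DNMT1 KO libraries (SD), without overlap between the groups (log2 fold change -2.97, SE 0.33, edgeR quasi-likelihood adjusted p = 1.74e-05). Of the colorectal epithelial markers, EPCAM, CDH1, KRT8, KRT18, KRT19 and CDX2 had means between 30.7 CPM (CDX2) and 1674 CPM (KRT8) in HCT116, whereas VIL1 (0.0093 CPM) and LGALS4 (0.077 CPM) were near 0. EPCAM, CDH1, KRT8 and KRT18 were called lower in DNMT1 KO by edgeR, with log2 fold changes of -2.08, -3.67, -2.69 and -2.29, while VIL1 (0.609 CPM) and the endothelial marker PECAM1 (from 0.0989 to 1.23 CPM) were called higher. The leukocyte marker PTPRC and the fibroblast marker COL1A2 were at or near 0 in both lines (at most 0.066 CPM), and COL1A1 was at 12.5 and 6.72 CPM. The part of these differences between the lines in the results below was not tested. In bulk RNA, fewer cells expressing a gene and less RNA per cell cannot be told apart.

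RefSeq promoter windows, of 250 bases before to 50 bases after the start of a gene (GRCh38.p14), were found for 37 of the 48 genes. Of these, 5 are printed to show what the promoters of lost and kept genes look like. ZNF525, ZNF83 and ZNF468 are the genes with the largest decreases in edgeR that have a window, and ZNF616 and ZNF766 are the kept genes with the highest level per length over all 10 libraries that have one. CpG dinucleotides, where methylation occurs, are in capitals, and the sequences run 5′ to 3′ on the strand of the gene. The windows are chr19:53365455-53365754, plus strand (ZNF525, 21 CpGs), chr19:52690447-52690746, minus strand (ZNF83, 29 CpGs), chr19:52857570-52857869, minus strand (ZNF468, 30 CpGs), chr19:52139889-52140188, minus strand (ZNF616, 24 CpGs) and chr19:52269337-52269636, plus strand (ZNF766, 26 CpGs). The RefSeq start of ZNF468 lies inside the gene as the count tables give it, 32756 bases from its 5′ end and 19 bases from that of ZNF28, so this window is also that of the start of ZNF28.
ZNF525: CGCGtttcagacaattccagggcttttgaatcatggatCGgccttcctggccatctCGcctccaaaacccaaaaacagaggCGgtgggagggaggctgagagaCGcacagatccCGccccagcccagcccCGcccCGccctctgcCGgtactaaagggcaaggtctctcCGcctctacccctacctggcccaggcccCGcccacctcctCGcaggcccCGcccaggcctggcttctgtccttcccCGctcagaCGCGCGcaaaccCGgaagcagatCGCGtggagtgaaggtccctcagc
ZNF83: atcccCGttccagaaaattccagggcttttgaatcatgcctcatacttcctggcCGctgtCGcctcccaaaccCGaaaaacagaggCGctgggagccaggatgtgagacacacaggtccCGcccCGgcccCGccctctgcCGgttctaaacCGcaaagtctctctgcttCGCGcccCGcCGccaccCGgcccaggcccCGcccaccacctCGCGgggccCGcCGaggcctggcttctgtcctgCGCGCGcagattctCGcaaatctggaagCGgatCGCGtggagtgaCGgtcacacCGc
ZNF468: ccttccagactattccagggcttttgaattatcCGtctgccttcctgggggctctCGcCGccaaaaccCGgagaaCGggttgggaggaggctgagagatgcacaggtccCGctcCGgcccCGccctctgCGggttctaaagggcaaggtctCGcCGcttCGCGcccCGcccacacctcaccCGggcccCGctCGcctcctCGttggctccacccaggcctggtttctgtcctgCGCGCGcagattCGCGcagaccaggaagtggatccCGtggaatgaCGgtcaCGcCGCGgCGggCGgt
ZNF616: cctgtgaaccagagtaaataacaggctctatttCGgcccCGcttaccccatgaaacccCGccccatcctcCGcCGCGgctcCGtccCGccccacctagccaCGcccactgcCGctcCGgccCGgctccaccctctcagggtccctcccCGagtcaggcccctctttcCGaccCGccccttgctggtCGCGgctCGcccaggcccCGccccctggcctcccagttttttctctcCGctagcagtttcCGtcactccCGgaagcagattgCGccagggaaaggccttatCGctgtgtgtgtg
ZNF766: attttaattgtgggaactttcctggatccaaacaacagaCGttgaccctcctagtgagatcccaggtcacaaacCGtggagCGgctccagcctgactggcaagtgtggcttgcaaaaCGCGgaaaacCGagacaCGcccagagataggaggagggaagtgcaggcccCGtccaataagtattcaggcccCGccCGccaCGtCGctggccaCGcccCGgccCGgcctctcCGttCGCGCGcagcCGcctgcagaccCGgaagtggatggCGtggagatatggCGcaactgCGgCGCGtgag

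Each gene was first sorted by what happened to its RNA in DNMT1 KO. A gene was called when the edgeR quasi-likelihood test gave an adjusted p under 0.05 over all 19279 genes tested and the log2 fold change exceeded 1 in size. Called lower genes whose mean in DNMT1 KO was at most 0.1 CPM are described as lost, the other called lower genes as lowered, and genes that were tested but not called as kept, which does not mean that they were shown to be equal. Of the 48 genes, 18 were lost, 2 were lowered, 13 were kept, none was called higher and 15 had too few counts to be tested. Over all genes tested, 6.49% were called lower, 1.11% met the definition of lost and 7.42% were called higher. The 20 called lower genes are counted among the 33 that passed the filter on low counts, and the 18 lost genes, with at most 8 counts in any DNMT1 KO library, passed it through their counts in HCT116.

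At a mean of at least 1 CPM, 11 of the 48 genes were expressed in both lines, 17 in HCT116 alone, 0 in DNMT1 KO alone and 20 in neither. Every DNMT1 KO library lay below every HCT116 library in 20 of the 33 members tested (60.6%), against 6.79% of all genes tested, and these are the 20 genes called lower. In 1 gene, ZNF616, every DNMT1 KO library lay above every HCT116 library, against 8.4% of all genes tested. The median log2 fold change was -4.60 over the 33 members tested and -0.07 over all genes tested.

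**Figure D1:**
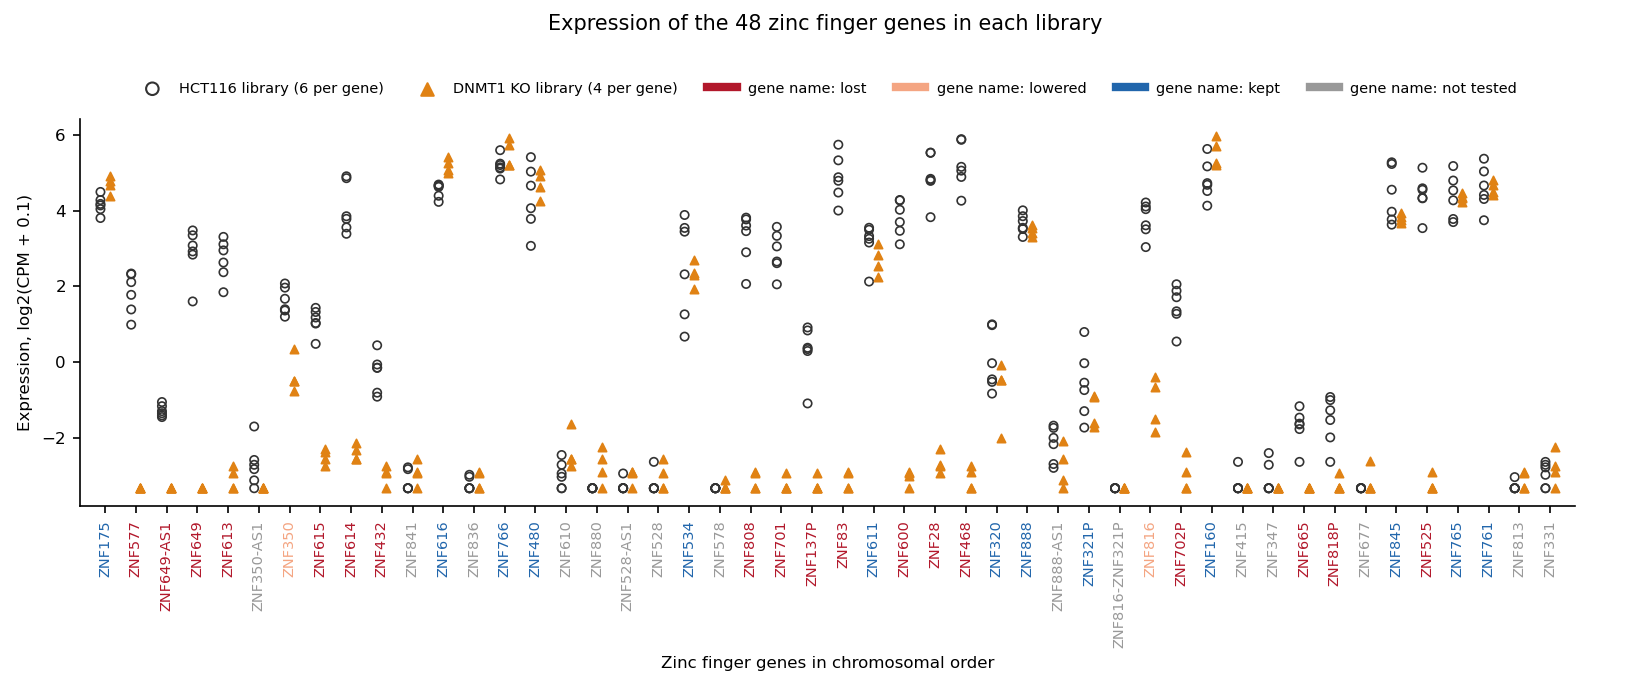
Expression of the 48 zinc finger genes, in chromosomal order, as log2(CPM + 0.1) on the vertical axis, with 1 circle for each of the 6 HCT116 libraries and 1 triangle for each of the 4 DNMT1 KO libraries. The names of the 18 lost genes are red, those of the 2 lowered genes orange, the 13 kept genes blue and the 15 untested genes grey, and triangles of lost genes sit at the bottom of the plot whatever the HCT116 level.

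The lost genes were ZNF577, ZNF649-AS1, ZNF649, ZNF613, ZNF615, ZNF614, ZNF432, ZNF808, ZNF701, ZNF137P, ZNF83, ZNF600, ZNF28, ZNF468, ZNF702P, ZNF665, ZNF818P and ZNF525. By the annotation, 14 of them are protein-coding, and the others are the pseudogenes ZNF137P, ZNF702P and ZNF818P and the antisense gene ZNF649-AS1. Together they held 73532 counts in HCT116 and 84 in DNMT1 KO. Their summed level was 201 ± 72.4 CPM in HCT116 (SD, n = 6), from 99.8 CPM in replicate 1 to 300.6 CPM in replicate 9. In DNMT1 KO it was 0.426 ± 0.119 CPM (SD, n = 4), and no lost gene had more than 8 counts in any DNMT1 KO library. Log2 fold changes ran from -11.68 (ZNF649) to -4.44 (ZNF818P). Where a DNMT1 KO sum is at or near 0 the fitted fold depends on the small prior count that edgeR adds, so ratios of summed counts scaled by depth are given as well, with intervals that cover counting error only. These intervals and the floors treat each count as independent. Counts between 1 and 10 were mostly even in 9 of the 10 libraries, and if counts there came in pairs, the intervals would be wider and the bounds lower. Whether they did was not tested.

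ZNF649, a KRAB zinc finger gene known to bind LINE elements, had the largest fitted decrease in edgeR, although the order among genes near 0 depends on the fit, and DESeq2 gave -10.88 for ZNF649 and -10.98 for ZNF525 on the log2 scale. ZNF649 is at chr19:51889235-51905040 on the minus strand. HCT116 libraries had 2.94 CPM at the lowest, 7.91 at the median and 11.03 at the highest, and all 4 DNMT1 KO libraries had 0 counts against 2783 in HCT116. Against a floor of 3 counts over the group, ZNF649 was at least 517-fold lower (log2 fold change -11.68, SE 0.83, edgeR adjusted p = 1.59e-06). Its neighbours ZNF577 and ZNF649-AS1 also had no count in DNMT1 KO. ZNF577 was at 1.89, 3.78 and 4.96 CPM at the lowest, median and highest HCT116 library and was at least 235-fold lower (log2 fold change -10.58, SE 0.81, edgeR adjusted p = 3.24e-06). ZNF649-AS1 was weaker, at 0.267 to 0.383 CPM in HCT116, and was at least 19.3-fold lower. ZNF665, the last gene with no DNMT1 KO count, had 75 counts in HCT116 and was at least 13.9-fold lower.

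ZNF525 lies between kept genes at the distal end of the cluster (chr19:53365693-53392217, plus strand). Its HCT116 libraries had 11.5 CPM at the lowest, 21.7 at the median and 34.9 at the highest. In DNMT1 KO the only counts were 2 in replicate 2 (0.036 CPM), and replicates 1, 3 and 4 had 0. The HCT116 to DNMT1 KO ratio of ZNF525 was 2293 (95% interval 635 to 18938), with a log2 fold change of -10.75 (SE 0.65, edgeR adjusted p = 6.99e-08). ZNF83 (chr19:52594060-52690496, minus strand) was at 15.9, 28.4 and 53.2 CPM at the lowest, median and highest HCT116 library. In DNMT1 KO it was at 0, 0, 0.032 and 0.035 CPM in replicates 1 to 4, which is 3 counts in all. The ratio of ZNF83 was 2152 (736 to 10438), with a log2 fold change of -10.74 (SE 0.66, edgeR adjusted p = 7.11e-08). The groups were far apart in both genes, with the highest DNMT1 KO library at 0.036 CPM for ZNF525 and 0.035 CPM for ZNF83.

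ZNF468 (chr19:52838010-52890375, minus strand) was the lost gene with the highest CPM in HCT116. It was at 19.1 CPM in the lowest, 34.3 in the median and 58.9 in the highest HCT116 library. Its DNMT1 KO libraries were at 0.051, 0.036, 0 and 0 CPM in replicates 1 to 4, a ratio of 2024 (790 to 7430) and a log2 fold change of -10.68 (SE 0.66, edgeR adjusted p = 7.33e-08). Of the annotated exonic bases of ZNF468, 53.3% are shared with exons of other genes, among them ZNF28 and ZNF320, so its level is uncertain, although ZNF320 was kept and ZNF28 was lost. ZNF28 was the lost gene with the highest level per length in HCT116, at 5.29 CPM per kb of exon, close to the 5.46 CPM per kb of the kept gene ZNF761. ZNF28 fell to 10 counts over the 4 DNMT1 KO libraries, 651-fold lower by ratio (354 to 1358).

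ZNF808, a gene needed for pancreas development in humans that binds a family of endogenous retroviral repeats, was lost together with its overlapping neighbour ZNF701. ZNF808 (chr19:52527652-52564464, plus strand) was at 4.08, 11.5 and 14.0 CPM at the lowest, median and highest HCT116 library, and at 0, 0, 0.032 and 0.035 CPM in DNMT1 KO replicates 1 to 4. The ratio was 683 (234 to 3315), with a log2 fold change of -9.14 (SE 0.69, edgeR adjusted p = 3.85e-07). ZNF701 was at 4.05, 7.21 and 11.8 CPM at the lowest, median and highest HCT116 library, and DNMT1 KO replicate 3 alone had counts, at 0.032 CPM. Its ratio was 782 (216 to 6457), with a log2 fold change of -9.24 (SE 0.70, edgeR adjusted p = 3.85e-07). ZNF600 was at 8.54, 14.5 and 19.3 CPM at the lowest, median and highest HCT116 library and at 0.025, 0, 0.032 and 0.035 CPM in DNMT1 KO (ratio 716, 279 to 2628, log2 fold change -9.25, SE 0.56, edgeR adjusted p = 6.97e-08). ZNF808 and ZNF701 share 17.3% and 18.6% of their exonic bases with other genes, each other included.

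The remaining lost genes kept a trace of RNA or were low from the start. ZNF614 averaged 18.1 ± 8.81 CPM in HCT116 and, with 18 counts, 0.092 ± 0.027 CPM in DNMT1 KO (SD over 6 and 4 libraries), and ZNF613 went from 6.77 ± 2.32 to 0.021 ± 0.025 CPM. ZNF615 went from 2.06 ± 0.455 to 0.0805 ± 0.025 CPM and was the lost gene closest to the limit of 0.1 CPM after ZNF614. ZNF432 was at 0.773 ± 0.302 CPM in HCT116 and 0.029 ± 0.021 CPM in DNMT1 KO. Among the pseudogenes, ZNF702P fell from 2.83 ± 0.978 CPM in HCT116 to 0.033 ± 0.045 CPM in DNMT1 KO, and ZNF137P from 1.23 ± 0.505 to 0.0079 ± 0.016 CPM. ZNF818P, with 95 counts in HCT116 and 2 in DNMT1 KO, had a ratio of 26.5 (7.13 to 222). Of the stretches of 50 bases in ZNF818P transcripts, 68.0% also occur in transcripts of other genes, so its counts are uncertain.

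ZNF350 and ZNF816 were lowered but not lost. ZNF350 (ZBRK1), a KRAB zinc finger gene whose protein binds BRCA1, was at 2.20 CPM in the lowest, 2.81 in the median and 4.12 in the highest HCT116 library. DNMT1 KO replicates 1 to 4 were at 0.606, 0.604, 1.17 and 0.487 CPM, all below HCT116 (log2 fold change -2.06, SE 0.38, edgeR adjusted p = 0.00131). Within batch 2 alone, with 2 libraries per group, ZNF350 had a log2 fold change of -2.15 that missed the threshold (adjusted p = 0.0537). ZNF816 was at 8.11, 14.2 and 18.4 CPM at the lowest, median and highest HCT116 library. It was at 0.253, 0.178, 0.540 and 0.660 CPM in DNMT1 KO replicates 1 to 4, without overlap (log2 fold change -5.11, SE 0.45, edgeR adjusted p = 1.84e-06). The mean in DNMT1 KO was 0.718 CPM for ZNF350 and 0.408 CPM for ZNF816, against the limit of 0.1 CPM for a lost gene.

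The 13 kept genes were ZNF175, ZNF616, ZNF766, ZNF480, ZNF534, ZNF611, ZNF320, ZNF888, ZNF321P, ZNF160, ZNF845, ZNF765 and ZNF761. They held 83035 counts in HCT116 and 50986 in DNMT1 KO, and their log2 fold changes ran from -1.06 (ZNF321P) to 0.68 (ZNF160), 8 below and 5 above 0. Within batches more of them were higher in DNMT1 KO than lower, with 4 of 13 lower in batch 1 and 3 of 13 in batch 2. In HCT116 their level per length, from 0.127 to 5.46 CPM per kb with a median of 2.85, overlapped that of the lost genes, from 0.029 to 5.29 CPM per kb with a median of 1.41. ZNF28 (lost) and ZNF761 (kept) are near the top of both ranges.

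ZNF616 (chr19:52113091-52139938, minus strand) was the kept gene with the clearest difference. It was at 18.7 CPM in the lowest, 24.8 in the median and 25.6 in the highest HCT116 library, and at 31.8, 42.2, 38.15 and 33.5 CPM in DNMT1 KO replicates 1 to 4. The groups did not overlap, and the log2 fold change of 0.64 (SE 0.20, edgeR adjusted p = 0.0412) was below the fold limit. Over the edgeR alternatives the adjusted p of ZNF616 ran from 0.00868 (library totals) to 0.194 (batch 2 alone). When 1 library was left out it ran from 0.0322 to 0.137, on both sides of the threshold of 0.05. ZNF160, a gene described as a repressor of TLR4 in intestinal epithelial cells, was at 17.4, 25.9 and 49.2 CPM at the lowest, median and highest HCT116 library and at 37.0, 52.0, 62.0 and 38.1 CPM in DNMT1 KO. These ranges overlapped (log2 fold change 0.68, SE 0.29, edgeR adjusted p = 0.133). ZNF766 was at 28.2, 35.9 and 48.1 CPM at the lowest, median and highest HCT116 library and at 37.0, 52.5, 60.5 and 36.4 CPM in DNMT1 KO, again with overlap (log2 fold change 0.35, SE 0.23, edgeR adjusted p = 0.359). At an unadjusted p under 0.05, 3 of the genes tested were higher in DNMT1 KO in edgeR (ZNF175, ZNF616 and ZNF160), none of which passed the fold limit, and DESeq2 also called 0 of the 48 genes higher.

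ZNF845, ZNF765 and ZNF761 lie around ZNF525 and kept their RNA. ZNF845 was at 12.3 CPM in the lowest, 19.4 in the median and 38.5 in the highest HCT116 library and at 13.3, 12.6, 15.3 and 14.1 CPM in DNMT1 KO (log2 fold change -0.76, SE 0.35, edgeR adjusted p = 0.168). In batches 1 and 2 with a batch term, ZNF845 was at -0.0026 on the log2 scale. ZNF765, known to bind LINE elements, was at 12.9, 21.1 and 36.0 CPM at the lowest, median and highest HCT116 library and at 18.8, 20.1, 20.6 and 22.1 CPM in DNMT1 KO. The log2 fold change of ZNF765 was -0.11 with an SE of 0.29 (edgeR adjusted p = 0.840), and it was 0.09 when libraries were scaled by their totals alone, a scaling that moved the median of all genes from -0.07 to 0.14. ZNF761 was at 13.3, 23.2 and 41.1 CPM at the lowest, median and highest HCT116 library and at 21.3, 25.5, 27.9 and 22.3 CPM in DNMT1 KO (log2 fold change -0.07, SE 0.29, edgeR adjusted p = 0.901), with a log2 fold change of 0.13 under totals alone. In all 3 genes the DNMT1 KO libraries lay inside the HCT116 range. ZNF480 was at 8.29, 20.9 and 42.4 CPM at the lowest, median and highest HCT116 library and at 24.6, 29.7, 19.01 and 33.2 CPM in DNMT1 KO (log2 fold change 0.20, SE 0.38, edgeR adjusted p = 0.779). With a batch term in batches 1 and 2, ZNF480 was at 0.93 on the log2 scale (edgeR adjusted p = 0.101).

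The lowest kept genes are also the least certain ones. ZNF320 averaged 1.06 ± 0.655 CPM in HCT116 and 0.562 ± 0.295 CPM in DNMT1 KO (SD over 6 and 4 libraries), and 78.5% of its exonic bases are shared with other genes, among them ZNF468. ZNF321P, a pseudogene at 0.687 ± 0.522 CPM in HCT116 and 0.327 ± 0.126 CPM in DNMT1 KO, shares 40.2% of its exonic bases with ZNF816-ZNF321P. The settings that the study names for the counting include no option for reads on shared exons, and their assignment is not described. ZNF816-ZNF321P, with 100% of its exonic bases shared, had 0 counts in both lines. No strand option is named either, so sense and antisense pairs such as ZNF649 and ZNF649-AS1 cannot be told apart.

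The 15 genes that were not tested had few or no counts in both lines. No library had more than 18 counts for any of them, and together they had 119 counts in HCT116 and 82 in DNMT1 KO. ZNF331, an imprinted gene, had 10 counts in HCT116 and 11 in DNMT1 KO. ZNF677, whose promoter is known to be methylated in several tumours, had 0 counts in HCT116 and 4 in DNMT1 KO, all in replicate 3. ZNF415, described as a repressor of p53 and AP-1 reporter activity, had 2 counts in HCT116 and 0 in DNMT1 KO. The highest sums were those of ZNF888-AS1 (44 in HCT116, 9 in DNMT1 KO), ZNF350-AS1 (27 and 0, called lower when no filter on low counts was applied) and ZNF610 (12 and 22). ZNF841, ZNF836, ZNF528-AS1, ZNF528, ZNF347, ZNF578 and ZNF813 had at most 7 counts in either line, and ZNF816-ZNF321P had none. It shares 100% of its exonic bases with other genes, ZNF816 and ZNF321P among them. Of its stretches of 50 bases, 96.3% are found in other genes, so the absence of counts cannot be read as silence. ZNF880 had 0 counts in HCT116 and 11 in DNMT1 KO, and it was called higher without that filter.

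Along the chromosome the states formed 29 runs, with lost genes interleaved with the others. The first run of lost genes held 4 genes from ZNF577 to ZNF613 (chr19:51804816-51948759), followed after ZNF350-AS1 and ZNF350 by a run of 3 from ZNF615 to ZNF432. The middle of the cluster, from ZNF841 to ZNF578, held no lost gene and contained the kept genes ZNF616, ZNF766, ZNF480 and ZNF534 among 7 untested ones. Then came 4 lost genes from ZNF808 to ZNF83 (chr19:52527652-52690496), the kept gene ZNF611, and 3 lost genes from ZNF600 to ZNF468 (chr19:52749942-52890375). Distal to these, lost genes stood in runs of 1 or 2 (ZNF702P, ZNF665 with ZNF818P, and ZNF525) among kept, lowered and untested genes. The annotated ranges of neighbours of unlike state overlap in places, so that lost ZNF525 ends at 53392217, inside kept ZNF765, which starts at 53389793, and lost ZNF468 overlaps kept ZNF320. Both strands were represented, with 7 lost genes on the plus and 11 on the minus strand and 7 kept genes on the plus and 6 on the minus strand.

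**Figure D2:**
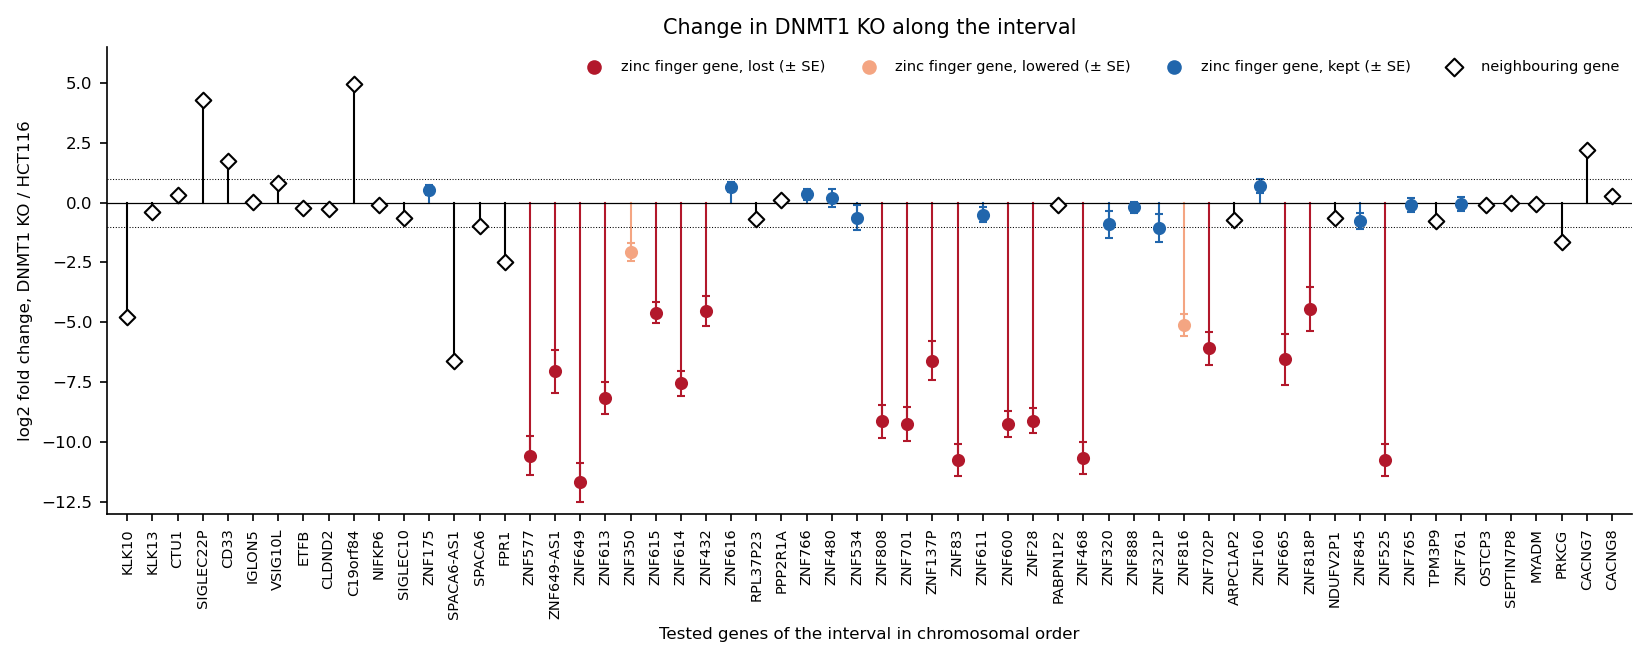
Log2 fold change of DNMT1 KO over HCT116 (vertical axis) for the tested genes of the interval in chromosomal order, as circles with SE bars for zinc finger genes and open diamonds for other genes, with dotted lines at -1 and 1. The 18 lost genes lie between -11.68 and -4.44 and are interleaved with kept genes between -1.06 and 0.68.

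Over the whole interval, genes of other kinds did not follow a single direction. Of 172 such genes with a symbol, 27 were tested, with a median log2 fold change of -0.11. Called lower were 3 (KLK10, FPR1 and SPACA6-AS1) and called higher 4 (SIGLEC22P, CD33, C19orf84 and CACNG7). These 4 lie before ZNF175 or after ZNF331, whereas FPR1 (-2.48 on the log2 scale) and SPACA6-AS1 (-6.62) lie between those genes. FPR1 and SPACA6-AS1, which stand just before ZNF577, also met the definition of lost. That is 7.41% of the 27 tested, against 1.11% of all genes tested. Among tested genes of other kinds between ZNF175 and ZNF761, PPP2R1A alone had a positive log2 fold change, and the uncalled ones reached down to -0.96 (SPACA6). Of 3 tested protein-coding neighbours between the first and the last member, 1 was called lower and 0 higher. Their median log2 fold change was -0.96. Between the zinc finger genes ZNF616 and ZNF766, PPP2R1A, the scaffold subunit gene of protein phosphatase 2A, averaged 206 ± 73.4 CPM in HCT116 and 220 ± 39.0 CPM in DNMT1 KO (SD over 6 and 4 libraries), and was not called (log2 fold change 0.09, SE 0.27, edgeR adjusted p = 0.860). Whether the members differ from these neighbours was not tested.

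Zinc finger genes elsewhere in the genome were described with the same fit. Any that start between bases 24500000 and 34000000 of chromosome 19 were in no group. The share called lower was 60.6% of 33 tested genes here (20 genes), 23.5% of 34 with a start up to base 19000000 of chromosome 19, 21.4% of 14 from there to base 24500000, 25% of 20 from base 34000000 to 38200000, 15.2% of 33 from there to base 51000000 and 5.88% of 51 after base 54500000. On other chromosomes it was 4.91% of 265. The share lost was 18 of 33 here and between 1.89% (other chromosomes) and 17.6% (up to base 19000000) in those groups. The genes called higher were 0 here, and also 0 of 14 from base 19000000 to 24500000 and 0 of 20 from base 34000000 to 38200000. The most were 6 of 33, from base 38200000 to 51000000. The differences between these groups were not tested.

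**Figure D3:**
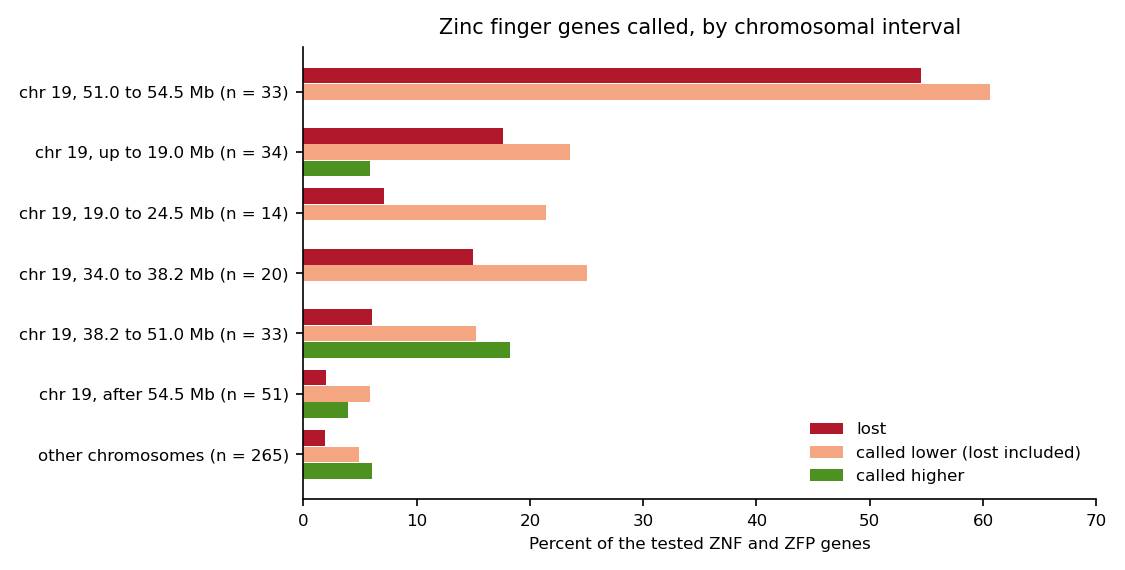
Percent of tested ZNF and ZFP genes that were lost, called lower (lost included) or called higher in DNMT1 KO, by interval of chromosome 19 and for other chromosomes, with the number tested in brackets. The interval described here, in the top row, has 18 of 33 genes lost, 20 called lower and none called higher.

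The losses were also compared within batches, since batches 3 and 4 hold 1 line each. Ratios are on the log2 scale, as the difference between the lines in mean log2(CPM + 0.1). All 18 lost and both lowered genes were lower in DNMT1 KO in batch 1, with 1 library per group, and in batch 2, with 2 per group. This direction was fixed in advance, because every DNMT1 KO library lay below every HCT116 library in these genes. The sizes within batches are what the comparison adds. The lost genes ran from -7.32 (ZNF83) to -0.69 (ZNF665 and ZNF818P) in batch 1 and from -8.07 (ZNF468) to -1.93 (ZNF665) in batch 2. A pseudocount of 0.1 CPM limits the size of these ratios for genes near 0. In a fit of batches 1 and 2 that included a batch term, 18 of the 31 members tested were called lower, all of them among the 20, and ZNF665 and ZNF818P did not pass the filter on low counts there. The kept genes lay between -1.17 (ZNF320) and 1.08 (ZNF160) in batch 1 and between -0.55 (ZNF320) and 1.16 (ZNF534) in batch 2.

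HCT116 libraries of different batches give the spread within 1 line. Between batch 4 and batches 1 and 2, 3 of 33 members tested (9.09%) were called, all higher in batch 4, near the 8.03% of all genes that were called in either direction. All 3 are kept genes. ZNF534, known to bind HERVH elements in embryonic stem cells, was at 1.498 to 4.89 CPM in HCT116 replicates 1, 2 and 3 and at 10.8, 14.7 and 11.5 CPM in replicates 7, 8 and 9 (log2 fold change 2.08, edgeR adjusted p = 0.0127). ZNF480 and ZNF845 were higher in batch 4 by 1.37 and 1.25 on the log2 scale (edgeR adjusted p = 0.0286 and 0.0308). The number called was 0 without HCT116 replicate 2 and 1 without replicate 7, 8 or 9. The 4 DNMT1 KO libraries were at 3.70 to 6.39 CPM for ZNF534, between the HCT116 batches. No lost gene was called between HCT116 batches, and ZNF614 had the largest difference among them, 1.02 on the log2 scale (edgeR adjusted p = 0.0816), against its fold change of -7.55 in DNMT1 KO.

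**Figure D4:**
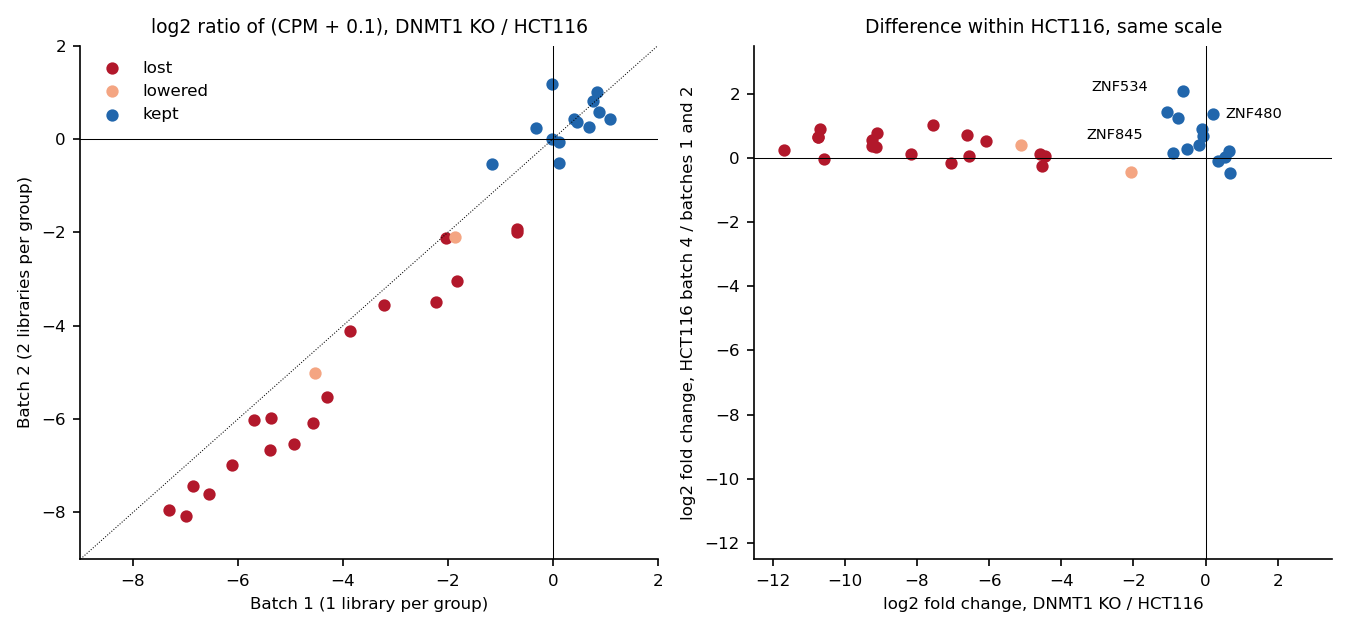
Tested members as points, lost in red, lowered in orange and kept in blue. Left, log2 ratio of DNMT1 KO over HCT116, as the difference in mean log2(CPM + 0.1). Batch 1 is horizontal and batch 2 vertical, with the dotted line of equal values. Right, log2 fold change of DNMT1 KO over HCT116 (horizontal) and of HCT116 batch 4 over batches 1 and 2 (vertical) on the same scale, where no lost gene moves by more than 1.02 between HCT116 batches.

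The corepressor genes through which KRAB zinc finger proteins act were read from a list of 20. Of the 19 tested, 1 was called lower and 1 higher, with a median log2 fold change of -0.09. Over all genes tested, 6.49% were called lower and 7.42% higher. TRIM28, the common corepressor, averaged 952 ± 441 CPM in HCT116 and 924 ± 264 CPM in DNMT1 KO (SD over 6 and 4 libraries), with a log2 fold change of -0.04 (SE 0.34, edgeR adjusted p = 0.950). SETDB1, the H3K9 methyltransferase of the complex, had a log2 fold change of 0.12 (SE 0.22, edgeR adjusted p = 0.768). HDAC1, a histone deacetylase, fell from 251 ± 53.9 to 101 ± 19.3 CPM (log2 fold change -1.31, SE 0.24, edgeR adjusted p = 0.00133). CBX5, which encodes HP1 alpha, rose from 318 ± 82.8 to 675 ± 59.7 CPM (log2 fold change 1.09, SE 0.24, edgeR adjusted p = 0.00483). ATF7IP and MORC2 had log2 fold changes of 0.83 and 0.82 (edgeR adjusted p = 0.0244 and 0.0339), below the fold limit. No corepressor gene was called higher with batch as a term, and none was called lower in batch 2 alone or with the replicate number as a block.

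Promoter sequence was then set beside the states. The windows were rich in CpG in every state, with a median of 25 CpGs per 300 bases in 11 lost genes (18 to 30), 25.5 in 10 kept genes (20 to 30) and 21.5 in 14 untested genes (13 to 34), against 14 in all 27305 promoters. The RefSeq start was over 1000 bases from the 5′ end of the gene in the count tables for 5 of 11 lost genes (ZNF577, ZNF614, ZNF432, ZNF701 and ZNF468), 2 of 10 kept genes (ZNF765 and ZNF761) and 1 untested gene (ZNF331), so these windows may not be the promoters used. Among the windows within that distance, the median was 23.5 CpGs in 6 lost genes and 25 in 8 kept genes. The lowered genes ZNF350 and ZNF816 had 17 and 25. The ranges of lost and kept genes overlapped almost fully in the plot of CpG count against fold change. DNA methylation was not analysed here, and the windows of ZNF577 and ZNF649-AS1, on opposite strands, overlap each other.

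**Figure D5:**
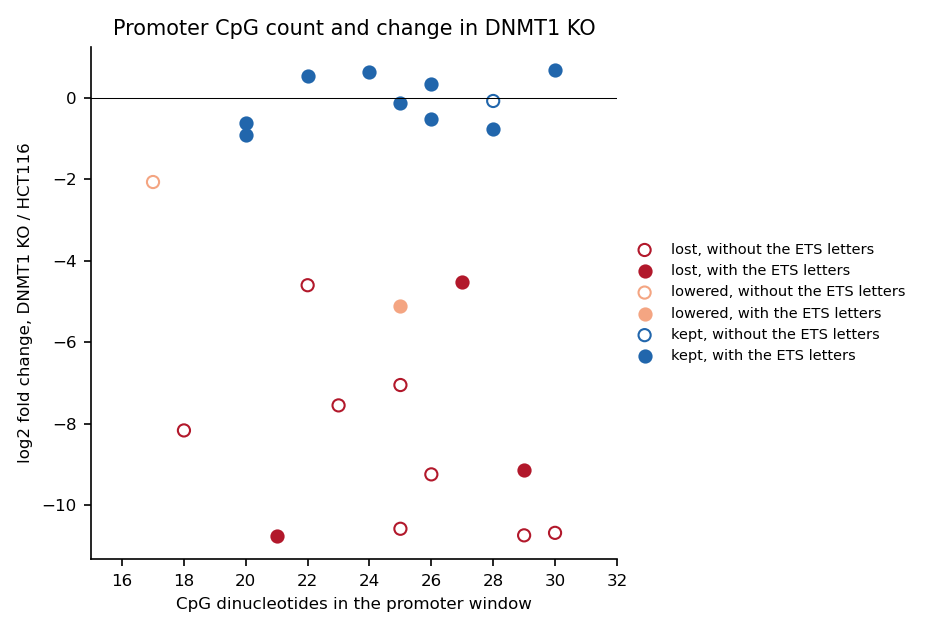
Number of CpG dinucleotides in the 300-base promoter window (horizontal) and log2 fold change of DNMT1 KO over HCT116 (vertical) for tested genes with a RefSeq window, filled where the window holds CCGGAAG on either strand. Lost genes (red) range from 18 to 30 CpGs and kept genes (blue) from 20 to 30, and 9 of 10 blue but 3 of 11 red points are filled.

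Short strings known as parts of factor binding sites were counted on both strands. CCGGAAG, the core of ETS family sites, occurred in 9 of 10 kept windows, 3 of 11 lost windows, 1 of 2 lowered windows and 11 of 14 untested windows, against 10.7% of all promoters. Among windows within 1000 bases of the 5′ end in the count tables, it occurred in 8 of 8 kept and 2 of 6 lost windows, a selection made after the values were seen. TGCGCA, part of the NRF1 site, occurred in 2 lost, 0 lowered, 0 kept and 3 untested windows (8.42% of all promoters). GATGGCG, part of the YY1 site, occurred in 4 lost, 1 lowered, 2 kept and 1 untested window (4.35% of all promoters). Lowered ZNF816 and untested ZNF816-ZNF321P have the same window, so its CCGGAAG and GATGGCG are counted in both states. The lost windows with GATGGCG include the overlapping ones of ZNF577 and ZNF649-AS1. In the 50 bases after the start, on the strand of the gene, CCGGAAG stood in 8 of 10 kept windows, including ZNF616 and ZNF766 printed above. It also stood there in 2 of 11 lost (ZNF808 and ZNF525), 1 of 2 lowered and 7 of 14 untested windows, against 0.963% of all promoters. In most of the kept and lost windows with this match 4 bases lay between the start and the string, and in ZNF525 14. At the same places lost ZNF701 and ZNF468 and kept ZNF761 had CAGGAAG, and lost ZNF83 had CTGGAAG, strings that were looked for after the sequences had been seen. These are matches of letters among promoters of shared descent, which are not independent of each other, and CCGGAAG was also in 78.6% of the windows of untested genes.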

How the data were processed

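The authors prepared stranded, poly(A)-selected, paired-end libraries, trimmed reads with Trim Galore 0.4.1 after FastQC 0.11.4, mapped them to hg38 with bowtie2, removed reads of low mapping quality and counted exonic reads per gene with featureCounts, without a named strand option. The annotation release is not given in the sources used here. Raw counts were deposited for each gene in 1 table per library, and 3 tables of HCT116 replicates 4 to 6 with no sample in the series' list were not used. Coordinates and exon lengths of genes are from the deposited tables (hg38), and names and biotypes from GENCODE 44, to which 34 of 48 members matched exactly in start and end.

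Two-sided quasi-likelihood tests were run on the counts with edgeR 4.0.16 in R 4.3.3 (TMM, filterByExpr defaults, glmQLFit, glmQLFTest), with group alone in the model and Benjamini-Hochberg adjustment over 19279 genes. The script was tested on simulated data. CPM per kb divides by exonic length. Members, lists and limits were chosen with earlier results of these data known. Named genes are the 8 largest decreases with at least 1 CPM in HCT116, the 6 uncalled genes with the highest CPM per kb over all 10 libraries, and 8 genes with a known role. Others are named to account for every member. Low counts (1 to 10) were even numbers in 64.4 to 70.0% of cases in 9 libraries but in 39.9% in DNMT1 KO replicate 4, so a fit with the counts of those 9 halved was tried, and the reason for the difference was not tested. Floors are 3 counts over a group, and intervals and floors cover counting error only. Alternatives were other size factors, filters, DESeq2 1.42.0, batch terms, a replicate block, halved counts and leaving out each library.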

Additional observations from a re-analysis of the deposited data

How the results depend on the processing

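The 20 members called lower stayed negative wherever they were tested, in all 20 alternatives. In these genes every DNMT1 KO library lay below every HCT116 library. The sign was therefore all but fixed where libraries were left out or batches taken alone. The number called lower was 20 with RLE size factors, library totals, DESeq2 and batch as a term, 21 without a filter on low counts, 18 in batches 1 and 2, in batch 2 alone and with a replicate block, 17 with halved counts, and 18 to 20 when 1 library was left out. With at least 10 counts in every library it was 2, because the filter removed the lost genes and left 13 members. Without a filter, ZNF350-AS1 was newly called lower and 1 member, ZNF880, was called higher, against 0 called higher otherwise. Replicate numbers did not pair the lines (correlations of same-numbered deviations 0.497, -0.221 and 0.379), and all 18 genes called under the replicate block were among the 20.

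Some uncalled genes changed sign. ZNF534 went from -0.62 to 0.78 in batches 1 and 2 with a batch term. ZNF761 was at 0.13 with library totals, 0.39 with batch as a term, 0.40 in batches 1 and 2, 0.26 in batch 2 alone, 0.40 with the replicate block and -0.17 to 0.12 leaving out 1 library. ZNF765 was at 0.089, 0.38, 0.38, 0.35 and 0.40 under the same settings and at -0.19 to 0.082 leaving out 1 library. ZNF845 was at 0.0069 in batch 2 alone. Corepressor genes called higher numbered 3 with library totals, 0 with batch as a term, 0 in batches 1 and 2, 0 with the replicate block and 0 to 2 leaving out 1 library. Those called lower numbered 2 without a filter, 2 with DESeq2, 0 in batch 2 alone, 0 with the replicate block and 1 to 2 leaving out 1 library. Neighbouring genes called lower numbered 1 with at least 10 counts in every library, 1 with halved counts and 1 to 3 leaving out 1 library, and 1 was called higher with at least 10 counts. Members called between HCT116 batches numbered 0 to 3 leaving out 1 library. Except where stated, the cause was not tested. The 15 untested members were below the filter on low counts, and without it 2 of them were called.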
